A study of Arabidopsis thaliana with 8 samples.

Results

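The response of WT *Arabidopsis thaliana* seedlings to 100 mM NaCl was described gene by gene, from RNA sequencing of 2 WT NaCl libraries and 2 WT mock libraries. A gene was taken when the mean of its deposited values over these 4 libraries was at least 10, which held for 19444 of the 27207 genes of the table. Of the others, 3959 genes had 0 in all 4 libraries and 3804 had values above 0 but under the minimum. Close to this minimum, 289 genes had a mean from 10 to 12 and were kept, and 326 genes had a mean from 8 to 10 and were left out. Within the 19444 genes, 501 passed the minimum only through the NaCl libraries, since their mock mean was under 10, and 174 passed only through the mock libraries.

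WT was Col-0, and the other 4 libraries of the series are labelled *idd4*, a mutant of the zinc finger gene *IDD4*, and serve here only as a side comparison. *IDD4* itself had 281.8, 398.5, 369 and 391.9 in the 4 WT libraries and 503, 506.7, 531.9 and 524 in the 4 libraries labelled *idd4*, so that the targeted gene was higher, not lower, in every library with the mutant label. All seedlings grew for 5 days on MS medium and were then moved to the same medium without NaCl (mock) or with 100 mM NaCl, and whole seedlings of 14 days gave total RNA. Each of the 4 groups had 2 libraries, named here WT mock 1 and 2, WT NaCl 1 and 2, and likewise for *idd4*. The submitters call the 2 libraries of a group biological replicates and do not say whether they came from separate sowings, and p-values measure the spread between these libraries. The hour at which RNA was taken is not given in the labels.

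Salt reaches a plant as 2 stresses, a shortage of water that acts within minutes and a slower load of sodium and chloride in the tissue. Abscisic acid (ABA) is the hormone of the first: its receptors switch off a set of protein phosphatases, the freed SnRK2 kinases activate transcription factors, and these turn on dehydrins, lipid transfer proteins and enzymes that make proline. The ionic load is handled by exporters such as SOS1 and by vacuolar exchangers of the NHX family, and long exposure is known to slow growth, lower photosynthetic gene expression and colour leaves with anthocyanin.

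Between 9717450 and 10621311 fragments were assigned to genes in the 4 WT libraries, and between 5882615 and 13557480 in all 8. Values are scaled fragment counts, that is, fragments per gene brought to a common scale by median-of-ratios factors, and they are not divided by gene length, so that levels of different genes are not on 1 scale. The largest 10 genes took 8.8% and 9.7% of the mock libraries but 6.2% and 6.5% of the NaCl libraries. In the deposited values, whose totals are nearly equal, the median gene was 0.25 higher under NaCl on the log2 scale, and after median-of-ratios scaling 0.01 higher. The summed level of 6 leaf markers was 397526 and 497909 in mock and 203505 and 242015 in NaCl, and that of 10 root markers was 2519 and 4135 in mock and 2876 and 4291 in NaCl, each of the 16 detected above 3 fragments in every library. Member by member, 6 of 6 leaf markers (median −1.10) and 9 of 10 root markers (median −0.73) were lower on average, while *NRT2.1* was higher by 2.18 and held much of the root sum under NaCl. Both organs were thus present in all 4 WT libraries, and their part in the results was not tested. In whole seedlings, fewer cells of a type and less RNA per cell cannot be told apart. Flower and pollen markers summed to at most 12.1, with the pollen gene *VGD1* at 0 in all 4. Seed storage markers summed to at most 1.1 in 3 libraries and to 41.0 in WT NaCl 1, where *SESA1* alone gave 38.3.

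Of the 19444 genes, 230 were higher and 231 lower under NaCl, 461 in all, or 2.37% (1.18% higher and 1.19% lower; limma on log2(value + 1), adjusted p under 0.05 over all genes). These are called risen and fallen below, and a gene that did not pass is given by its values. Of the risen genes 31 had a mock mean under 10, and of the fallen genes 16 had a NaCl mean under 10, so that these entered the test only through the group in which they were high. In every one of the 461 genes both NaCl libraries lay beyond both mock libraries. That alone is common, because 4613 genes (23.7%) had both NaCl libraries above both mock libraries and 4575 (23.5%) had both below. The risen genes had a median difference of 1.86 and the smallest was 0.82; the fallen genes had a median of −1.56 and the smallest was −0.80. At least 8-fold differences were found in 61 risen and 23 fallen genes. Among all genes, 80% lay between −0.66 and 0.62, and the median standard error (SE) of a difference was 0.27. Without adjustment, 1533 genes were higher and 1829 lower at p under 0.05.

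The split between risen and fallen genes depended on the scaling, since the deposited values without further scaling gave 386 risen and 117 fallen. The numbers also rested on single libraries. With WT mock 1 left out 21 rose and 14 fell, with WT mock 2 left out 36 and 15, with WT NaCl 1 left out 108 and 102, and with WT NaCl 2 left out 78 and 65. The fallen genes were 146 or 148 without one or the other mock library labelled *idd4*, which enters only through the estimate of the spread. Leaving out a library leaves its group with 1 library, which is then assumed to vary like the others. With any single WT library left out, 15 risen and 7 fallen genes still passed.

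**Figure D1:**
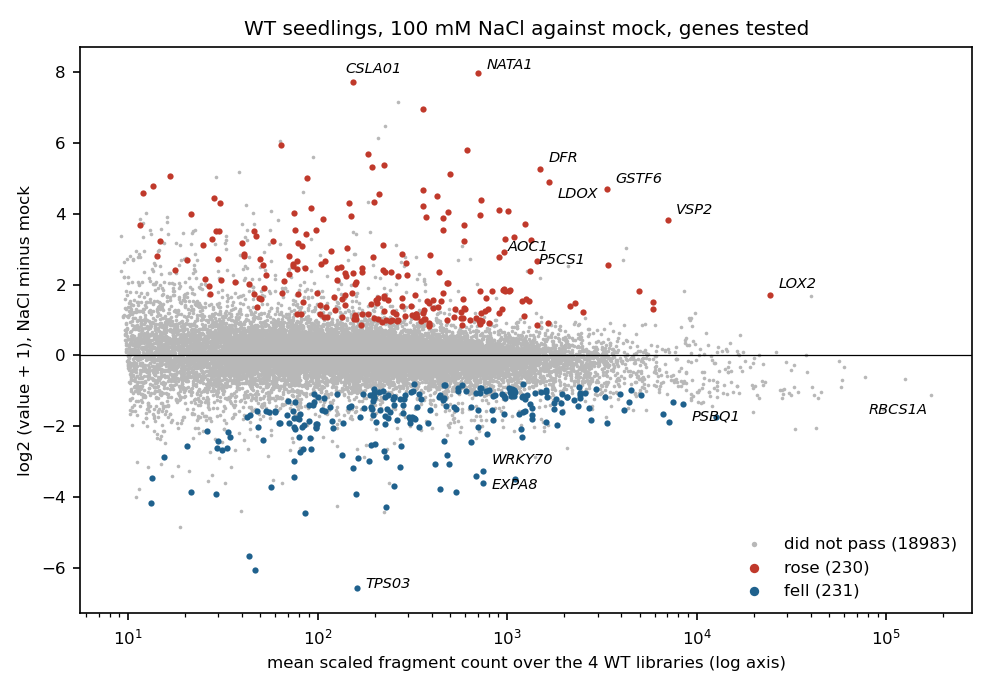
Difference between WT NaCl and WT mock (log2(value + 1)) against the mean scaled fragment count of each gene over the 4 WT libraries (log axis), with 1 point per gene for the 19444 genes tested. The 230 risen genes (red) reach 7.99, the 231 fallen genes (blue) reach −6.56, and 18983 genes (grey) did not pass.

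These 22 genes were picked out after their values were seen. The risen ones include 5 anthocyanin genes described below, *GSTF6*, *AOC1* and *P5CS1*. *AT2G37870*, of the lipid-transfer protein family, had 19.8 and 20.9 in mock and 1133 and 1287 in NaCl (5.82, SE 0.41, adjusted p = 0.00077, limma). *HIS1-3*, a linker histone known to be induced by drought, had 52.8 and 37.4 in mock and 326 and 467.5 in NaCl. *MYB47*, a MYB transcription factor, had 41.8 and 20.9 in mock and 268 and 239 in NaCl, and *COL1*, a relative of the flowering regulator CONSTANS, had 50.6 and 51.7 in mock and 300.4 and 281.5 in NaCl. In each of these genes the groups lay further apart than the libraries of either group. The other risen genes of this kind were *DAA1*, *AT3G28270* and *AT1G68570*. The 7 fallen ones were *TPS03*, *AT5G62360*, *EXPA8*, *AT3G04210*, *scpl1*, *AT1G67865* and *AT5G25840*.

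Several of the largest differences were found in genes with few or no fragments in mock, which reached the minimum mean only through the NaCl libraries. *NATA1*, an acetyltransferase that acts on ornithine and is known to respond to jasmonate, had 0 and 4.4 in mock and 2673 and 130.3 in NaCl (7.99, SE 1.61, adjusted p = 0.043, limma). The NaCl libraries differed from each other by far more than the mock libraries, and the call was lost when WT mock 1 (adjusted p = 0.24), WT mock 2 (0.15) or WT NaCl 1 (0.14) was left out, and also with edgeR, quantile normalization, robust variances, no variance trend or no filter. *CSLA01*, a cellulose synthase-like gene, had 0 in both mock libraries and 533 and 84.5 in NaCl, which is at least 93.6-fold higher over the group when the floor of 3 fragments per library stands for 0, and at least 25.6-fold without WT NaCl 1. Its call was lost without WT mock 1 (adjusted p = 0.059) or WT mock 2 (0.058). *CSLG2*, of a related family, had 0 and 3.3 in mock and 146 and 108 in NaCl, and *NUDT24*, a nudix hydrolase, had 1.1 and 3.3 in mock and 104 and 1324 in NaCl. Of the 15 genes with the largest rises, 4 kept their call without any one WT library. By fragment count, which gene length also sets, the 5 highest of the risen genes were *LOX2*, *VSP2* and *AOC2*, described with jasmonate, and 2 enzymes of glutathione and ascorbate. *GSTU20*, a glutathione transferase, had 3685 and 3068 in mock and 8011 and 8691 in NaCl. *DHAR1*, which regenerates ascorbate, had 2543 and 1889 in mock and 7724 and 7622 in NaCl. None of the 5 kept its call without any one WT library, at adjusted p up to 0.26, and *GSTU20* did not pass with edgeR.

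At the other end, *TPS03*, which makes the volatile terpene ocimene, had 237 and 407 in mock and 4.5 and 1.0 in NaCl (−6.56, SE 0.49, adjusted p = 0.00084, limma). *CYP71B22*, a cytochrome P450, had 94.7 and 91.4 in mock and 0 and 1.0 in NaCl, and *CYP76G1*, of another P450 family, had 140 and 34.1 in mock and 0.9 and 0 in NaCl. All 3 were close to absent in both NaCl libraries. *EXPA8*, an expansin that loosens cell walls, had 1288 and 1461 in mock and 123 and 104 in NaCl (−3.59, SE 0.25, adjusted p = 0.00077). *AT5G62360*, of the family of invertase and pectin methylesterase inhibitors, had 964 and 1044 in mock and 57.0 and 82.6 in NaCl. *ACD6*, an ankyrin protein of immunity, had 1141 and 518.5 in mock and 57.9 and 52.7 in NaCl, *PCC1*, named for its response to pathogens and the clock, had 268.5 and 63.9 in mock and 6.2 and 4.0 in NaCl, and *ACS4*, an ethylene synthesis enzyme, had 36.3 and 46.2 in mock and 1.8 and 2.0 in NaCl. The NaCl values of each lay below every mock value. Of the 15 largest falls, 3 kept their call without any one WT library. The 5 fallen genes with the highest fragment counts were *GER3*, *PSBQ1*, *CP12-2*, *FBA5* and *AT2G45180*, and all 5 lost their calls without any one of the 4 WT libraries, at adjusted p up to 0.25. *GER3*, a germin, had 23759 and 15454 in mock and 6751 and 4826 in NaCl, and *FBA5*, an aldolase, had 9258 and 13313 in mock and 2705 and 3339 in NaCl.

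Late anthocyanin synthesis was the gene list in which every member passed. All 10 enzymes and transport proteins of the late pathway rose, with differences from 0.86 to 5.28 and a median of 3.6, against 1.18% of all genes risen and a median of 0.01. *DFR* (*AT5G42800*), which turns dihydroflavonols into leucoanthocyanidins, had 55.0 and 84.8 in mock and 1769 and 4085 in NaCl (5.28, SE 0.49, adjusted p = 0.0027, limma). *LDOX* (*AT4G22880*), which makes the anthocyanidins from them, had 80.3 and 131 in mock and 2363 and 4077 in NaCl (4.91, SE 0.38, adjusted p = 0.0011). *UF3GT*, a flavonoid glycosyltransferase, had 63.8 in each mock library and 1064 and 1736 in NaCl, and *TT19*, the glutathione transferase that anthocyanins need to reach the vacuole, had 82.5 and 76.0 in mock and 849.5 and 1879 in NaCl. For these 4 genes the lower NaCl library was at least 10 times the higher mock library, and WT NaCl 2 was the higher of the NaCl libraries in each. The acyltransferase *5MAT* had 29.7 and 64.9 in mock and 527 and 866 in NaCl, the anthocyanidin glucosyltransferase *AT4G14090* had 157 and 197 in mock and 1336 and 2217 in NaCl, and *SCPL10*, a serine carboxypeptidase-like acyltransferase, had 68.2 and 44.0 in mock and 255 and 318 in NaCl. *UGT78D2*, a glucosyltransferase that flavonols share, changed least, with 997 and 1040 in mock and 1720 and 1990 in NaCl. *AT1G03940* and *AT1G03495*, the remaining 2, differed by 2.87 and 2.28. Near-identical genes could share reads, and how the authors counted these is not stated. All 10 passed with edgeR and DESeq2 on the recovered fragments. 5 of the 10 (*DFR*, *LDOX*, *UF3GT*, *TT19* and *SCPL10*) passed without any one WT library, and the other 5 lost their call without WT mock 1, at adjusted p up to 0.21.

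Of 9 enzymes of phenylpropanoid and early flavonoid synthesis 1 rose and 0 fell, and their median difference was 0.06. *CHS*, the entry enzyme of flavonoid synthesis, had 10813 and 8621 in mock and 12542 and 9665 in NaCl, and *PAL1*, at the head of the phenylpropanoids, had 8244 and 10677 in mock and 9423 and 7474 in NaCl, so that the groups overlapped in both. *FLS1*, which draws the shared precursor to flavonols, had 3319 and 2523 in mock and 3719 and 1759 in NaCl. The member that rose was *TT7*, the flavonoid 3′ hydroxylase, with 532 and 549 in mock and 1421 and 1276 in NaCl (1.32, SE 0.16, adjusted p = 0.0075, limma), and it lost its call without WT mock 1 or WT mock 2, at adjusted p up to 0.07. Of 10 flavonoid regulators 2 rose. *PAP1*, the MYB factor that activates the late genes, had 14.3 and 20.9 in mock and 306 and 451 in NaCl (4.34, SE 0.45, adjusted p = 0.0043), and *TT8*, its bHLH partner, had 3.3 and 15.4 in mock and 104 and 177 in NaCl (4.03, SE 0.60, adjusted p = 0.015). Both lost their call without WT mock 1, and *TT8* also without WT NaCl 2, at adjusted p up to 0.075. *TTG1*, the WD40 protein of the same complex, had 554 and 471 in mock and 535 and 544 in NaCl. *MYB12* and *MYB111*, which drive the early genes, had differences of −0.66 and −0.12 that did not pass. *PAP2*, a close relative of *PAP1*, was under the minimum mean and was listed at 0 in mock and at 8.9 and 11.9 in NaCl.

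**Figure D2:**
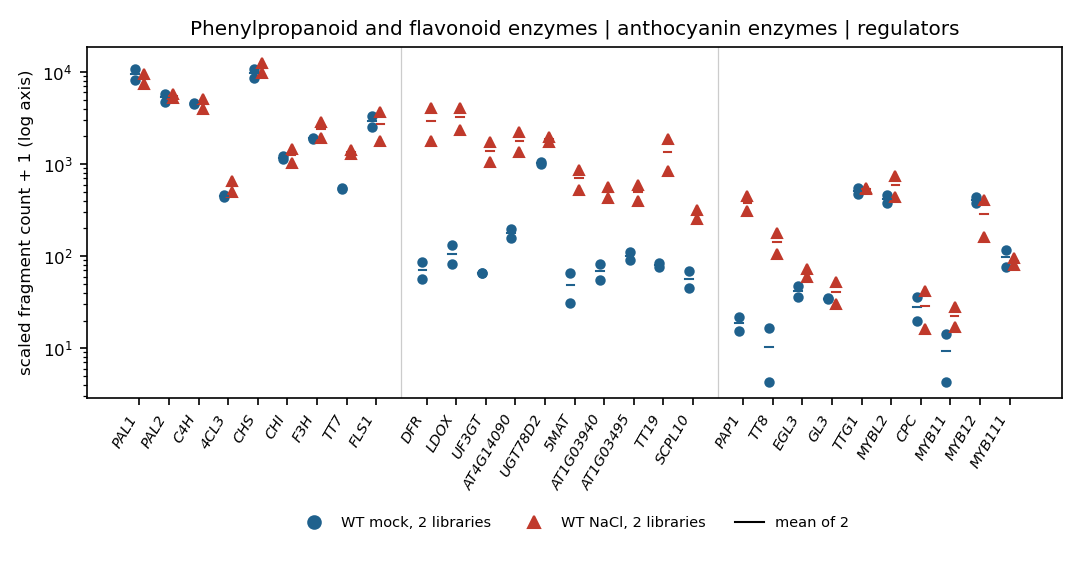
Scaled fragment counts plus 1 (log axis) of 9 phenylpropanoid and early flavonoid enzymes, 10 anthocyanin genes and 10 regulators in the 2 WT mock libraries (blue circles) and the 2 WT NaCl libraries (red triangles), with bars at the mean of 2. The circles and triangles separate for all 10 anthocyanin genes, for *TT7*, *PAP1* and *TT8*, and mix for *CHS*, *PAL1* and *FLS1*.

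ABA-responsive protective proteins, the dehydrins, late embryogenesis abundant proteins and lipid transfer proteins that ABA induces, had a median difference of 1.76 over 18 tested members. Of these, 3 rose and 0 fell, and 16 of 18 were higher on average. In 11 both NaCl libraries lay above both mock libraries, as in 23.7% of all genes tested. *LTP4* (*AT5G59310*) had 49.5 and 20.9 in mock and 395 and 968 in NaCl (4.22, SE 0.80, adjusted p = 0.036, limma), and its neighbour *LTP3* (*AT5G59320*) had 111 and 71.5 in mock and 981.5 and 2440 in NaCl (4.1, SE 0.58, adjusted p = 0.012). *KIN1* (*AT5G15960*), a small hydrophilic protein known from cold and ABA treatment, had 102 and 113 in mock and 737 and 1412 in NaCl (3.23, SE 0.39, adjusted p = 0.0074). WT NaCl 2 held the higher value in each of the 3, and each lost its call without WT mock 1 or WT mock 2, at adjusted p up to 0.23 over the single WT libraries left out. Well-known members of the class did not pass. The dehydrin *RAB18* had 227 and 271 in mock and 598 and 1682 in NaCl (adjusted p = 0.22). *RD29A*, the reporter gene of many stress studies, had 4581 and 6915 in mock and 6829 and 18597 in NaCl, where WT NaCl 1 lay below WT mock 2. *COR15A*, a chloroplast protein of cold acclimation, had 3060 and 3280 in mock and 5490 and 22393 in NaCl. *RD20*, a caleosin, had 28.6 and 19.8 in mock and 422 and 165 in NaCl (3.42, SE 0.84, adjusted p = 0.078). In 9 of the 18 members WT NaCl 2 was at least 2-fold above WT NaCl 1, and in 1 member the reverse held.

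In ABA core signalling 1 of 23 tested members rose and 1 fell, with a median of 0.16. *HAI2*, one of the phosphatases that hold the pathway off, had 13.2 and 8.8 in mock and 102.5 and 180 in NaCl (3.54, SE 0.59, adjusted p = 0.023, limma). *PYL6*, an ABA receptor, had 232 and 411 in mock and 90.04 and 76.6 in NaCl (−1.88, SE 0.29, adjusted p = 0.017). Of the 4 WT libraries left out in turn, 3 ended the call of *HAI2* and 2 that of *PYL6*, at adjusted p up to 0.17. Of the 23 members, both NaCl libraries lay above both mock libraries in 10 and below them in 7. Over all genes tested these shares were 23.7% and 23.5%. The 10 held all 7 tested phosphatases of the class of *HAI2*, a subset picked out after its values were seen. Of these 7, *HAI2* alone passed. The 6 others ranged from *HAB2*, with 626 and 592 in mock and 736 and 685 in NaCl, over *ABI1*, with 1032 and 1123 in mock and 1336 and 1446 in NaCl, to *HAI1*, with 37.4 in each mock library and 299.5 and 204 in NaCl. Of the receptors, 8 of 9 were lower on average. The kinases *SNRK2.2* and *SNRK2.3* and the factors *ABF1* to *ABF4* differed by −0.36 to 0.33, and none passed. ABA synthesis and catabolism had 0 risen and 0 fallen of 10. *NCED3*, the stress-induced step of ABA synthesis, had 116 and 187 in mock and 156 and 132 in NaCl, *CYP707A3*, which degrades ABA, had 317 and 531 in mock and 131 and 72.6 in NaCl (−2.06, adjusted p = 0.23), and *BG1*, which frees ABA from its glucose ester, had 715 and 940 in mock and 12404 and 2342 in NaCl (2.71, adjusted p = 0.12).

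Among 22 stress transcription factors 1 rose, with a median of −0.38. *HB7*, a homeodomain factor induced by ABA and drought, had 421.5 and 445 in mock and 1132 and 2078 in NaCl (1.82, SE 0.32, adjusted p = 0.028, limma). It lost its call without any one WT library except WT NaCl 1, at adjusted p up to 0.17. The NAC factors *NAC019* and *NAC055* and the MYB factor *MYB15* were far higher in WT NaCl 1 than in WT NaCl 2. *NAC019* had 11.01 and 8.8 in mock and 314 and 34.8 in NaCl (adjusted p = 0.26), and *MYB15* had 4.4 and 14.3 in mock and 160.5 and 28.8 in NaCl (adjusted p = 0.19). *RD26*, a NAC factor of ABA signalling, had 235.5 and 204 in mock and 669 and 474.5 in NaCl (1.36, adjusted p = 0.14). In 8 of the 22 factors both NaCl libraries lay above both mock libraries, and in 8 both lay below. Over all genes tested these shares were 23.7% and 23.5%. *ZAT10*, a zinc finger factor, had 1285 and 2396 in mock and 761 and 270 in NaCl, and *WRKY33*, a factor of defence, had 1301 and 1860 in mock and 1051 and 519 in NaCl (−1.07, adjusted p = 0.38).

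Proline, the osmolyte that plants store under drought and salt, had 1 risen gene of 9. *P5CS1* (*AT2G39800*), the rate-limiting enzyme of its synthesis, had 429 and 406 in mock and 1983 and 2457 in NaCl (2.4, SE 0.20, adjusted p = 0.0015, limma), and passed without any one WT library. The groups differed by far more than their libraries. Its paralogue *P5CS2* had 237 and 231 in mock and 309 and 594 in NaCl (0.87, adjusted p = 0.19), and the breakdown enzymes *ERD5*, a proline oxidase, and *P5CDH* had differences of 0.48 and 0.91 that did not pass.

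Sodium and potassium transport had 0 risen and 2 fallen of 29 tested members, with a median of −0.23. *KAT1*, the potassium channel of guard cells, had 194 and 238 in mock and 53.5 and 58.7 in NaCl (−1.92, SE 0.26, adjusted p = 0.010, limma), and *CHX17*, a cation exchanger of roots, had 205 and 234.5 in mock and 83.8 and 77.6 in NaCl (−1.43, SE 0.24, adjusted p = 0.024). *KAT1* lost its call without WT mock 1 or without WT mock 2, and *CHX17* without any one of the 4 libraries, at adjusted p up to 0.17. The named parts of the salt pathway did not pass. *SOS1*, the sodium exporter, had 138 and 207 in mock and 213 and 239 in NaCl, *SOS3*, its calcium sensor, had 29.7 and 38.5 in mock and 52.6 and 54.7 in NaCl (0.65, adjusted p = 0.35), and *NHX1*, the vacuolar exchanger, had 459 and 495 in mock and 393 and 404 in NaCl. *HKT1*, which takes sodium from the xylem, had 28.6 and 17.61 in mock and 47.2 and 5.0 in NaCl, a range wider than any difference between the groups. *HAK5*, a high-affinity potassium transporter, had 28.6 and 62.8 in mock and 47.2 and 80.6 in NaCl. *SLAH1*, an anion channel gene, had 25.3 and 22.02 in mock and 0.9 and 3.0 in NaCl (−3.16, SE 0.80, adjusted p = 0.085).

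The upstream sequence is shown for 4 risen genes, *KIN1* for the ABA-responsive proteins, *P5CS1* for proline and *DFR* and *LDOX* for anthocyanin, because their rises are described above. Each line gives the 250 bases before the annotated gene start, 5′ to 3′ on the strand of the gene, from the RefSeq genome TAIR10.1, at chr5:5209467-5209716 (plus strand) for *KIN1*, chr2:16603320-16603569 (minus strand) for *P5CS1*, chr5:17166033-17166282 (minus strand) for *DFR* and chr4:12006210-12006459 (minus strand) for *LDOX*. Capitals mark ACGTG, the core of the ABA-response element and of the G-box, read on either strand, so that it appears as ACGTG or CACGT.
KIN1: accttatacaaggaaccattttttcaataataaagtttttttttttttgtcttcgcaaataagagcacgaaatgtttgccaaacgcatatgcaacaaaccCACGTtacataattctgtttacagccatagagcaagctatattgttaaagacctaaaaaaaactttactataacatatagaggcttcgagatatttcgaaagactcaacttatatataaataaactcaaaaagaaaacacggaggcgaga
P5CS1: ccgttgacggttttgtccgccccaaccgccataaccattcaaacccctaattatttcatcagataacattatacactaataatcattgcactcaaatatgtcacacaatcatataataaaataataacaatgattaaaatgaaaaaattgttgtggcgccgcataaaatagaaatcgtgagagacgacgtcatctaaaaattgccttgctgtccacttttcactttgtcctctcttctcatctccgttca
DFR: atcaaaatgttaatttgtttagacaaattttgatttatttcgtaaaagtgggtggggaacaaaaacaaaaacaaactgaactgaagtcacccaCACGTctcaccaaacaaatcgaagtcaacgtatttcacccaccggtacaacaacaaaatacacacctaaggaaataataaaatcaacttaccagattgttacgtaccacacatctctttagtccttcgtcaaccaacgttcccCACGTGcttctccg
LDOX: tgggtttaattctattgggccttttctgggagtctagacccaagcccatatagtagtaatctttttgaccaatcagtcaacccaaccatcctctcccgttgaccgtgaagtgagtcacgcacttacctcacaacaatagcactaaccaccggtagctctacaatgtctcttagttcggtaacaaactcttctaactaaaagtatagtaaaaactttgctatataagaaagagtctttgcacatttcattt
*KIN1* held 1 match and *DFR* 3, of which 2 overlap as the palindrome CACGTG, and *P5CS1* and *LDOX* held none in this window. The same windows of *LTP4* and *LTP3*, not shown here, held 0 matches each, although both genes rose more than *KIN1*. In windows of 250 bases before to 50 after the start, ACGTG on either strand was found in 45.7% of 230 risen genes, 25.2% of 230 fallen genes with a window and 28.0% of all 19337 genes tested that had one. The longer form ACGTGTC was found in 12.6%, 1.7% and 5.0%, and CACGTG, which contains ACGTG on both strands, in 17.8%, 5.2% and 8.8%. By contrast, the W-box (TTGACC or TTGACT) was found in 34.8%, 29.6% and 32.9%, the evening element AAATATCT in 8.7%, 8.7% and 6.0%, and the dehydration element GCCGAC in 3.0%, 5.2% and 3.7%. By list, ACGTG was found in 12 of 18 promoters of ABA-responsive proteins, 17 of 27 of jasmonate genes and 3 of 10 of anthocyanin genes. It was also found in 22 of 44 of photosystem genes, a list with 40 members lower on average under NaCl and 4 higher. These shares are a description with no test, and a match is not a binding site.

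Jasmonate is the hormone of wounding and of much of the defence against insects, made from a chloroplast lipid by LOX, AOS and AOC enzymes and finished by OPR3. Of 27 tested genes of its synthesis and response 7 rose and 1 fell, with a median of 1.24. *LOX2* had 11326 and 10897 in mock and 46242 and 29088 in NaCl (1.72, SE 0.34, adjusted p = 0.042, limma), *AOC1* had 231 in each mock library and 1703 and 1480 in NaCl (2.77, SE 0.20, adjusted p = 0.00077), and *AOC2* had 3273 and 2850 in mock and 8710 and 8555 in NaCl (1.5, SE 0.20, adjusted p = 0.0092). *OPR3* had 426 and 449 in mock and 1392 and 803 in NaCl, and *CYP94B3*, which inactivates the hormone, had 52.8 and 71.5 in mock and 247 and 260 in NaCl. Synthesis and breakdown genes were thus both among the risen. Of the response genes, *VSP2*, a storage protein of leaves, had 889 and 764 in mock and 19490 and 7005 in NaCl (3.82, SE 0.51, adjusted p = 0.0097), and *CORI3*, a tyrosine transaminase family gene, had 1131 and 873 in mock and 5710 and 5935 in NaCl (2.55, SE 0.29, adjusted p = 0.0058). *AOC1* alone of the 8 kept its call without any one WT library, and the other 7 lost theirs both without WT mock 1 and without WT mock 2, at adjusted p up to 0.25. The member that fell was *PDF1.2A*, a defensin of the ethylene and jasmonate branch. It had 29.7 and 20.9 in mock and 1.8 and 1.0 in NaCl (−3.46, SE 0.74, adjusted p = 0.050, limma, just under the threshold). Its NaCl values lay under the floor of 3 fragments. The call was also lost with TMM factors, no further scaling, a pseudocount of 5, no variance trend, no filter and the fits on WT libraries alone. The JAZ repressors, early targets of the hormone, differed between the NaCl libraries. *JAZ10* had 11.01 and 9.9 in mock and 258 and 9.9 in NaCl, and *JAZ5* had 13.2 and 17.61 in mock and 217.5 and 34.8 in NaCl. *VSP1* had 538 and 511 in mock and 14688 and 1286 in NaCl (adjusted p = 0.18). In 15 of the 27 members WT NaCl 1 was at least 2-fold above WT NaCl 2, in 0 the reverse.

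Other defence genes went in both directions. Of 11 salicylate and immunity genes 1 rose and 2 fell, with a median of −0.55. *WRKY70*, a factor that favours salicylate over jasmonate responses, had 1665 and 1037 in mock and 183 and 102.5 in NaCl (−3.25, SE 0.43, adjusted p = 0.0097, limma). *PR5* had 111 and 130 in mock and 39.2 and 30.8 in NaCl (−1.76, SE 0.28, adjusted p = 0.019), while *PR2*, a glucanase used with it as a marker of salicylate, had 5.5 and 3.3 in mock and 198 and 146 in NaCl (5.02, SE 0.84, adjusted p = 0.024). All 3 lost their calls when WT mock 1, WT mock 2 or WT NaCl 2 was left out, at adjusted p up to 0.17. Of 30 glucosinolate genes 2 rose, with a median of 0.27. They were *MAM1*, which lengthens methionine for aliphatic glucosinolates (1218 and 1131 in mock, 3382 and 2874 in NaCl), and *FMOGSOX3*, which oxidises their side chain (344.5 and 395 in mock, 738 and 816 in NaCl), and both lost their calls when either mock library or WT NaCl 1 was left out, at adjusted p up to 0.13. Of 5 tested terpene and green leaf volatile genes *TPS03* fell, and *TPS04*, which makes the precursor of another volatile, had 0 and 2.2 in mock and 354 and 20.9 in NaCl (5.62, SE 1.62, adjusted p = 0.12). The terpene synthase that was high in mock was close to absent under NaCl, and the one close to absent in mock was high in WT NaCl 1.

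Photosynthetic genes were lower as a group, although few passed alone. Of 44 nuclear genes of photosystems and light harvesting, 40 were lower on average, 38 had both NaCl libraries below both mock libraries, and 1 fell, with a median of −0.92. Of 14 genes of the Calvin cycle, all 14 had both NaCl libraries below both mock libraries and 1 fell, with a median of −1.06. The share of all genes with both libraries below was 23.5%, and the members of these lists are not independent of each other. *PSBQ1*, a subunit of the oxygen-evolving complex, had 14476 and 10009 in mock and 4677 and 4661 in NaCl (−1.37, SE 0.28, adjusted p = 0.046, limma). *CP12-2*, a regulator of the Calvin cycle, had 11269 and 9970 in mock and 4097 and 4469 in NaCl (−1.31, SE 0.26, adjusted p = 0.042). Both lost their calls without any one of the 4 WT libraries, at adjusted p up to 0.24. *RBCS2B*, a small subunit of Rubisco, had 68253 and 68695 in mock and 14865 and 18049 in NaCl (−2.06, SE 0.47, adjusted p = 0.062). *RBCS1A*, another, had 225354 and 248576 in mock and 100062 and 118075 in NaCl, and with an SE of 0.70 its difference of −1.12 had an adjusted p of 0.47. The least changed were antenna proteins of photosystem II. *LHCB1.1* had 25414 and 52124 in mock and 34691 and 38010 in NaCl, and *LHCB2.1* had 8773 and 19791 in mock and 11995 and 17484 in NaCl, so that NaCl lay within the mock range. *LHCB4.3*, a minor antenna gene, was the most lowered, with 1260 and 1791 in mock and 283.5 and 488 in NaCl (−2.01, SE 0.56, adjusted p = 0.11). *LHCB1*, *LHCB2* and *RBCS* genes are near-identical copies, among which reads may have been split. On the deposited scale, where the median gene lay at 0.25, the medians of the lists were −0.68 and −0.82, and neither *PSBQ1* nor *CP12-2* passed. Plastid-encoded genes, transcribed by other polymerases, had a median of −0.02 over 45 genes, and mitochondrial genes one of 0.16 over 21, with 0 calls in either.

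**Figure D3:**
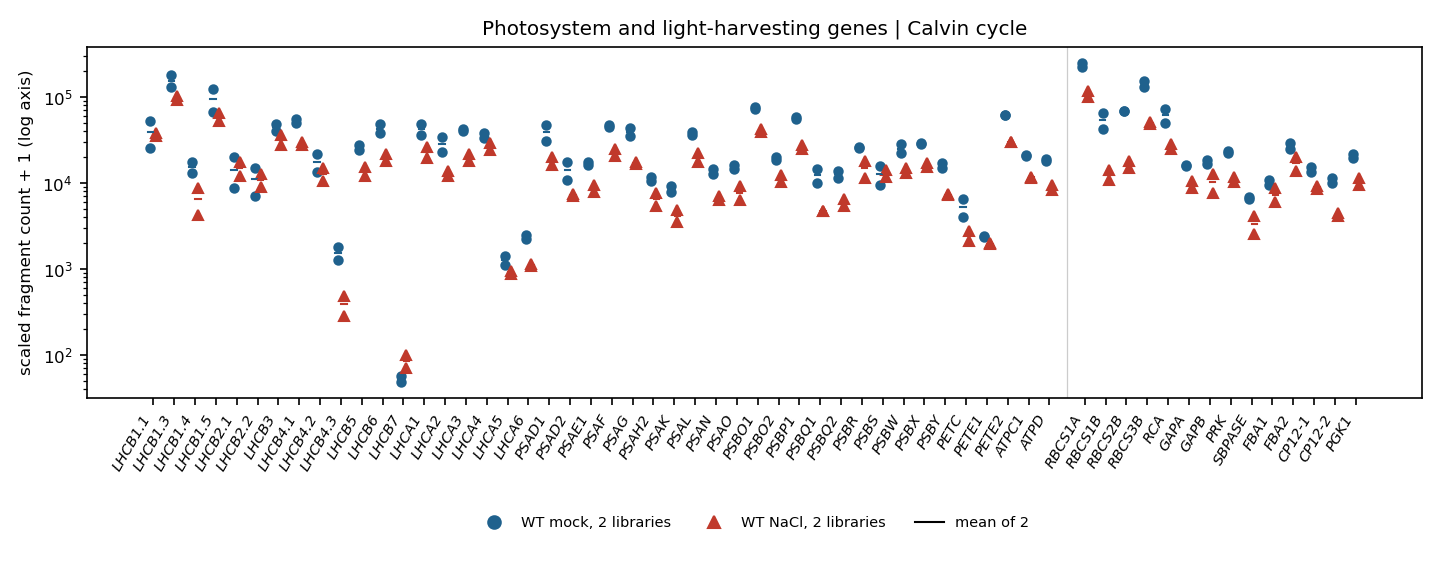
Scaled fragment counts plus 1 (log axis) of 44 photosystem and light-harvesting genes and 14 Calvin cycle genes in the WT mock (blue circles) and WT NaCl libraries (red triangles), with bars at the mean of 2. In 38 and 14 of them both triangles lie below both circles, and *LHCB1.1*, *LHCB2.1* and *LHCB2.2* are among the exceptions.

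Chlorophyll synthesis had 0 risen and 0 fallen of 13, with a median of −0.38. *CHLI1*, a magnesium chelatase subunit, had 8002 and 8267 in mock and 4815 and 4703 in NaCl (−0.77, adjusted p = 0.21), whereas *HEMA1*, at the head of the pathway, had 1234 and 1850 in mock and 2950 and 2051 in NaCl (0.70, adjusted p = 0.25). The list of chlorophyll breakdown and senescence had 4 risen and 0 fallen of 16, with a median of 0.73. The 4 were regulators and enzymes of senescence or of carbon starvation and none of the chlorophyll enzymes. *ASN1*, an asparagine synthetase known to be induced in the dark, had 46.2 and 135 in mock and 710 and 1483 in NaCl (3.68, SE 0.56, adjusted p = 0.016, limma). *NAP* and *ORE1*, NAC factors of leaf senescence, had 3.3 and 13.2 in mock and 51.7 and 50.7 in NaCl, and 18.7 and 30.8 in mock and 85.6 and 131 in NaCl. *DIN2*, a glycosyl hydrolase induced in the dark, had 42.9 and 30.8 in mock and 141 and 314 in NaCl. All 4 lost their calls without WT mock 1 or WT NaCl 2, at adjusted p up to 0.17. *NYC1*, which starts the breakdown of chlorophyll b, had 2006 and 2531 in mock and 1312 and 1052 in NaCl. *SGR1*, which removes magnesium from chlorophyll, had 165 and 172 in mock and 187 and 198 in NaCl. *SAG12*, the late senescence protease, was at 0 fragments in all 4 libraries.

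Sugar and starch metabolism had 3 risen and 0 fallen of 21, with a median of 0.19. *GPT2*, which carries glucose 6-phosphate into plastids, had 2.2 and 20.9 in mock and 209.5 and 545 in NaCl (5.34, SE 0.92, adjusted p = 0.025, limma). *GBSS1*, which makes amylose, had 25.3 and 19.8 in mock and 335 and 1054 in NaCl (4.67, SE 0.58, adjusted p = 0.0078), and *APL3*, a subunit of the enzyme that makes the starch precursor, had 59.4 and 62.8 in mock and 187 and 577 in NaCl (2.41, SE 0.46, adjusted p = 0.037). All 3 act on the way from imported sugar phosphate to starch, and WT NaCl 2 was the higher library in each. They lost their calls without WT mock 1, at adjusted p up to 0.20, while the catalytic subunit *ADG1* had 4873 and 5767 in mock and 4202 and 5752 in NaCl.

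Mineral nutrition genes differed by element. Nitrogen transport and assimilation had 1 risen of 22, with a median of −0.28. *NRT1.8*, which draws nitrate back from the xylem, had 4.4 and 15.4 in mock and 630 and 245 in NaCl (5.39, SE 0.76, adjusted p = 0.012, limma), and lost its call when either mock library or WT NaCl 1 was left out, at adjusted p up to 0.11. *NRT2.1*, the main high-affinity nitrate transporter of roots, had 360 and 751 in mock and 1852 and 2988 in NaCl (2.18, SE 0.79, adjusted p = 0.19). Phosphate starvation genes had 4 risen and 0 fallen of 17, and 16 of 17 were higher on average, with a median of 1.16. *SPX1*, a phosphate sensor, had 152 and 265 in mock and 507 and 913 in NaCl (1.76, SE 0.35, adjusted p = 0.042), *PAP17*, an acid phosphatase, had 147.5 and 161 in mock and 466 and 539 in NaCl, *PHT1;4*, a phosphate transporter, had 113 and 152 in mock and 338 and 293 in NaCl, and *AT4* (*AT5G03545*) had 95.8 and 118 in mock and 357 and 326 in NaCl. The 4 lost their calls without either mock library, at adjusted p up to 0.24, and 3 of them passed with edgeR. Sulfur starvation genes had 2 risen of 13, with a median of 0.77. *GGCT2;1*, which breaks down glutathione, had 13.2 and 23.1 in mock and 85.6 and 92.5 in NaCl (2.28, SE 0.37, adjusted p = 0.021), and *SULTR4;2*, a sulfate transporter of the vacuole, had 106 and 110 in mock and 275.5 and 335 in NaCl (1.49, SE 0.22, adjusted p = 0.014). Both lost their calls without either mock library or WT NaCl 2, at adjusted p up to 0.14.

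Iron uptake and storage genes had 0 risen and 0 fallen of 27, with a median of −0.25, and their NaCl libraries differed widely. *FRO2*, the ferric reductase of roots, had 808 and 846.5 in mock and 292 and 1427 in NaCl, *IRT1*, the iron transporter, had 2436 and 2558 in mock and 1466 and 5086 in NaCl, and *AT3G12900* had 49.5 and 71.5 in mock and 5.3 and 474.5 in NaCl. In each the mock values lay between the NaCl values, and in 15 of the 27 genes WT NaCl 2 was at least 2-fold above WT NaCl 1.

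Water channels and walls showed scattered changes. Of 19 aquaporins 0 rose and 1 fell, 15 were lower on average and the median was −0.55. *TIP2;2*, a vacuolar water channel, had 3403 and 2437 in mock and 982 and 927 in NaCl (−1.59, SE 0.28, adjusted p = 0.027, limma), a call lost without any one WT library at adjusted p up to 0.18. Of 13 alpha-expansins *EXPA8* fell and *EXPA10* rose, the latter with 625 and 566 in mock and 2182 and 1390 in NaCl (1.55, SE 0.33, adjusted p = 0.049). Members of one family thus passed in opposite directions, though *EXPA10* did not pass with edgeR or without any one WT library, at adjusted p up to 0.25. Of 20 wax and suberin genes 0 rose and 0 fell, and *KCS20*, an elongase, had 2252 and 3435 in mock and 1438 and 1567 in NaCl (−0.89, adjusted p = 0.099). Of 10 root markers *COBL9*, a gene of root hairs, fell, with 227 and 329 in mock and 110.5 and 128 in NaCl (−1.19, SE 0.23, adjusted p = 0.038), a call lost without any one of the 4 WT libraries at adjusted p up to 0.21.

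Cell division genes had 0 risen and 0 fallen of 17, with a median of 0.19; the cyclin *CYCD3;3* was the most changed, with 132 and 71.5 in mock and 246 and 203 in NaCl (1.19, adjusted p = 0.12). Auxin response genes had 0 of 14 in either direction, with a median of −0.19. *IAA19*, an auxin-induced repressor, had 119 and 151 in mock and 42.8 and 9.9 in NaCl (−2.62, SE 0.58, adjusted p = 0.058, limma). Clock genes had 2 risen of 19, with a median of −0.01. *CCA1*, a morning factor, had 19.8 and 34.1 in mock and 203 and 212 in NaCl (2.95, SE 0.33, adjusted p = 0.0049), and *PRR9*, which follows it in the day, had 28.6 and 20.9 in mock and 79.3 and 72.6 in NaCl (1.59, SE 0.30, adjusted p = 0.033). Its partner *LHY* had 20.9 and 13.2 in mock and 47.2 and 28.8 in NaCl, and the evening genes *TOC1* and *GI* had differences of −0.56 and −0.53, neither past the threshold. *CCA1*, *PRR9* and *LHY* thus lay above mock and *TOC1* and *GI* below it in both NaCl libraries. *LHY*, *TOC1* and *GI* were examples picked after their values were seen. Of all 19 clock genes, 9 were higher and 10 lower on average. Both NaCl libraries lay above both mock libraries in 8 and below them in 5, against 23.7% and 23.5% of all genes tested. The part of the hour of sampling was not tested. *CCA1* lost its call without WT mock 1 (adjusted p = 0.051), and *PRR9* without any one of the 4 WT libraries, at adjusted p up to 0.19.

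Heat shock genes had 0 of 10 in either direction. The small heat shock protein gene *HSP17.6A* was high in WT NaCl 1, with 3.3 and 1.1 in mock and 67.8 and 14.9 in NaCl (3.46, SE 0.94, adjusted p = 0.10, limma). Of 12 enzymes of reactive oxygen *GSTF6* and *GSTF7* rose. *GSTF6*, a glutathione transferase, had 243 and 240 in mock and 4800 and 8231 in NaCl (4.70, SE 0.25, adjusted p = 0.00035), a rise with little spread that was kept without any one WT library. *GSTF7*, its tandem neighbour, had 217 and 236 in mock and 760 and 577 in NaCl (1.55, SE 0.32, adjusted p = 0.046), and lost its call without any one of the libraries, at adjusted p up to 0.23, and with edgeR. Reads of these similar genes may have been shared. Catalases and superoxide dismutases did not pass, such as *CAT2* with 2429 and 3525 in mock and 5166 and 5490 in NaCl (0.86, adjusted p = 0.17).

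**Figure D4:**
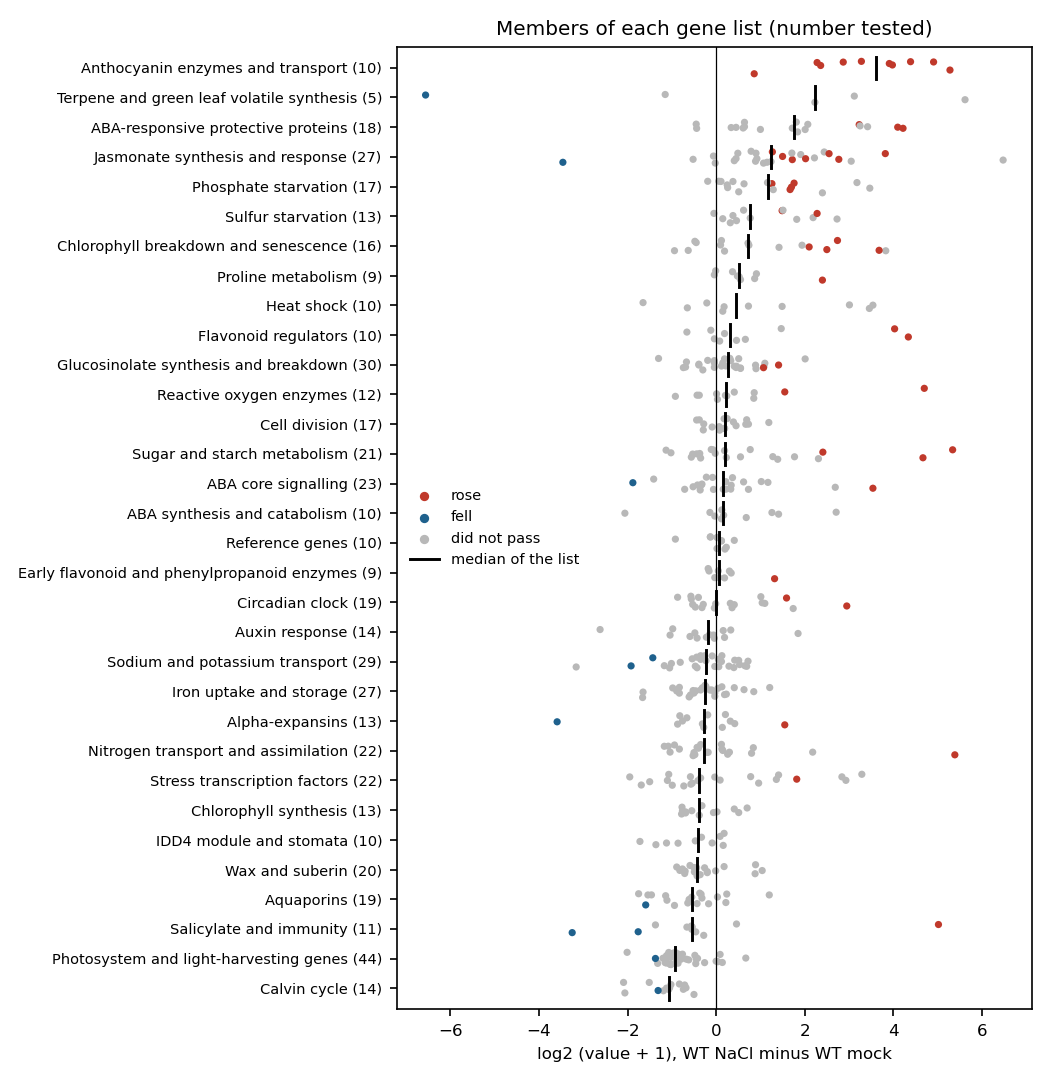
Difference between WT NaCl and WT mock (log2(value + 1)) for the tested members of 32 gene lists, 1 point per gene and a bar at the median of each list. Anthocyanin genes have the highest median (3.6, with 10 of 10 risen, red) and Calvin cycle genes the lowest (−1.06, with 1 of 14 fallen, blue).

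*IDD4* and the MAP kinase, DELLA and stomatal genes that the study centres on gave 0 calls under NaCl in WT. *IDD4* itself had 282 and 398.5 in mock and 369 and 391.9 in NaCl (0.18, SE 0.19, adjusted p = 0.71, limma), *MPK6*, a MAP kinase, had 365 and 373 in mock and 365 and 329 in NaCl, and *MPK4* had 355.5 and 314 in mock and 320 and 434 in NaCl. For *IDD4* and *MPK4* the NaCl and mock values overlapped. *MPK3* had 895 and 1235 in mock and 439 and 531 in NaCl (−1.12, SE 0.34, adjusted p = 0.13), both below mock. Of the stomatal genes, *SPCH*, which starts the lineage, had 61.6 and 85.9 in mock and 25.8 and 29.8 in NaCl (−1.36, adjusted p = 0.14), *SDD1*, a protease that limits stomatal number, had 119 and 197 in mock and 52.6 and 39.8 in NaCl (−1.72, adjusted p = 0.12), and *STOMAGEN* had 75.9 and 50.6 in mock and 38.3 and 51.7 in NaCl. None of the 10 tested genes of this list passed and its median was −0.40, while *MUTE* lay under the minimum. The DELLA gene *RGA* had 1085 and 1181 in mock and 1137 and 1277 in NaCl. Of the other genes that the study discusses, *HB7* and *CHX17* passed (above), and *NAC083*, *KUP1* and *MYB61* differed by −0.03, 0.13 and −0.58 and did not pass. Of 10 reference genes used in quantitative PCR 0 passed, with a median of 0.07, and *ACT2* had the largest difference, with 7071 and 6632 in mock and 4035 and 3244 in NaCl (−0.92, SE 0.21, adjusted p = 0.066).

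The 2 NaCl libraries differed from each other by gene group, which sets what could be called. At least 2-fold differences between them were found in 938 genes with WT NaCl 1 higher and 654 with WT NaCl 2 higher, and between the mock libraries in 587 and 475 genes. By list, the median of WT NaCl 1 minus WT NaCl 2 was 3.25 for the 5 terpene and green leaf volatile genes. All 5 were at least 2-fold higher in WT NaCl 1, though *TPS03*, at 4.5 and 1.0, lay near the floor of 3 fragments. The median was 1.28 for jasmonate genes, 0.88 for heat shock, 0.68 for stress transcription factors and 0.50 for glucosinolate genes. It was −0.71 for anthocyanin genes, −1.01 for ABA-responsive proteins and −1.20 for iron genes. The lists of ABA core signalling and of ABA synthesis and catabolism were near level, at −0.07 and 0.06. The mock libraries gave −0.07 for jasmonate, −0.22 for ABA-responsive proteins and −0.37 for iron, on the same scale. In the anthocyanin genes the difference between treatments (median 3.6) was larger than that between the NaCl libraries, and in the iron genes (median −0.25) it was smaller. Over all genes tested, the difference between the 2 WT NaCl libraries correlated at 0.48 with that between the 2 *idd4* NaCl libraries. It was thus partly shared by the libraries labelled *idd4*. The source of the difference between the libraries was not tested.

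**Figure D5:**
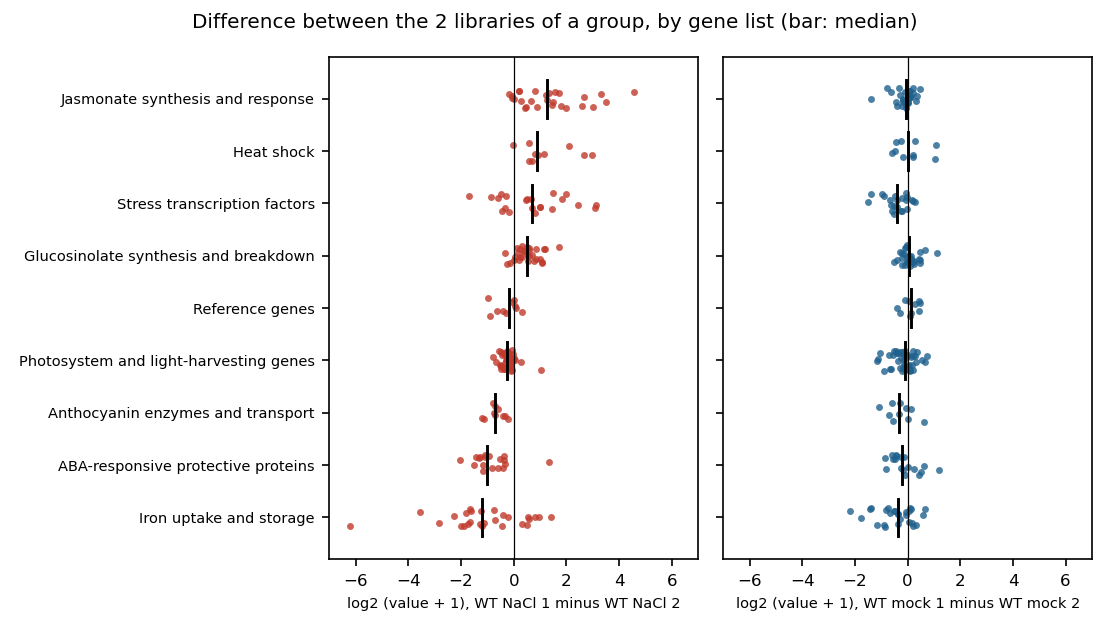
Difference between the 2 NaCl libraries (left, red) and between the 2 mock libraries (right, blue) of WT on the log2(value + 1) scale, for the tested members of 9 gene lists, 1 point per gene and a bar at the median. NaCl medians run from 1.28 (jasmonate) to −1.20 (iron), while the mock medians of these lists lie between −0.39 and 0.12.

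The seedlings labelled *idd4*, in which the fragment count of *IDD4* was not reduced (503 to 531.9, against 281.8 to 398.5 in WT), had their own mock libraries and the same treatment. Below, *idd4* means the libraries with that label. Their libraries entered the fit through the spread, and their means were not used to call WT genes. All 230 risen genes had a difference above 0 in *idd4* and all 231 fallen genes one below 0. Their medians were 1.57 and −1.35, against 1.86 and −1.56 in WT. The genes were picked by their WT difference, which favours larger medians in WT, so these medians do not compare the size of the responses. In 226 risen and 229 fallen genes both *idd4* NaCl libraries also lay beyond both *idd4* mock libraries in the same direction. Over all genes such shares were 23.7% and 23.5% in WT and were not taken in *idd4*. The spread between *idd4* libraries also helped to set which genes passed, so these counts are not an independent test. In *idd4*, 224 genes rose (1.15%) and 319 fell (1.64%). Of these, 147 risen genes were shared, 63.9% of the WT and 65.6% of the *idd4* list, and 151 fallen genes, 65.4% of the WT and 47.3% of the *idd4* list. The medians of the lists were close in both genotypes for anthocyanin (3.6 in WT, 3.1 in *idd4*), jasmonate (1.24 and 1.28) and the Calvin cycle (−1.06 and −1.14). The median of ABA-responsive proteins was lower in *idd4* (1.76 and 0.76). The mock values of its 3 risen genes also differed. *KIN1* had 192 and 224 in *idd4* mock, against 102 and 113 in WT mock. *LTP3* had 627.5 and 172, against 111 and 71.5, and *LTP4* had 186 and 34.4, against 49.5 and 20.9. The part of the mock values in the lower median was not tested. In some lists the sign differed, such as stress transcription factors (−0.38 and 0.17) and iron genes (−0.25 and 0.21). Differences between list medians were not tested as such. Gene by gene, the interaction of genotype and NaCl passed for 0 of 19444 genes with limma, edgeR or DESeq2, while 178 (0.92%) had an unadjusted p under 0.05, and the smallest adjusted p was 1 (limma). That share is below the 0.05 expected when no gene differs. The test was therefore conservative, and 0 calls do not show that the genotypes responded alike. The smallest unadjusted interaction p belonged to *GLK2*, a regulator of chloroplast genes, with 475.5 and 642 in WT mock and 1194 and 1331 in WT NaCl, and 833 and 781 in *idd4* mock and 812 and 878 in *idd4* NaCl (1.19 in WT, 0.07 in *idd4*, adjusted p of the interaction 1). *KIN1* differed by 3.23 in WT and 1.92 in *idd4*, and *CCA1* by 2.95 and 1.29, and neither interaction passed.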

How the data were processed

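Total RNA of whole seedlings was sequenced as 101 bp reads in 8 libraries of 4 groups. The series design gives 2 biological replicates per group, as analysed here, whereas the paper speaks of 3. Per the paper's methods, the authors checked reads with FastQC, trimmed them with Trimmomatic 0.32 to at least 36 bp, aligned them to TAIR10 with TopHat, allowing 2 mismatches, and computed expression with Cufflinks. The deposited values are named FPKM, but each library holds whole multiples of 1 step (at least 99.90% of values within 0.05), so they were treated as a signal, that is, fragments per gene that the authors had multiplied by 1 factor per library and not divided by gene length. The planned test was kept. How reads shared by similar genes were counted, and whether strand was used, is not given in the sources used here.

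Values were divided by median-of-ratios factors (0.904 to 1.122 in WT). Genes whose deposited values averaged 10 or more in the 4 WT libraries were tested on log2(value + 1) with limma 3.58.1 in R 4.3.3, with a variance trend and 1 mean per group over all 8 libraries, two-sided, Benjamini-Hochberg adjusted over all 19444 genes at 0.05. Fragments recovered from the steps were tested with edgeR 4.0.16 and DESeq2 1.42.0 as alternatives. The procedure was also run on simulated data, with an outcome that is not given here. A floor of 3 fragments per library stood for 0 and covers counting error only. Named genes were, in each direction, the 15 largest differences and the 5 most abundant genes that passed, up to 4 members per list, the genes the study discusses and those with the smallest interaction p. Further list members serve as examples chosen after their values were seen. The members and lists were chosen with earlier results of these data known. Gene names and upstream sequence are from RefSeq TAIR10.1, which matched 26558 of 27207 IDs; 107 tested genes had no upstream window.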

Additional observations from a re-analysis of the deposited data

Results flagged for a closer look

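Among the named genes of the interaction, 1 had its NaCl libraries on opposite sides of mock in WT and in the libraries labelled *idd4*, and it passed in neither. *AT1G23720*, annotated as a proline-rich extensin-like family protein, had 1958 and 3312 in WT mock and 1454 and 1140 in WT NaCl, and 2059 and 1911 in *idd4* mock and 2216 and 2663 in *idd4* NaCl. Both NaCl libraries lay below both mock libraries in WT (−0.98) and above them in *idd4* (0.29), and the difference between these responses was 1.28 on the log2 scale. The interaction did not pass (unadjusted p = 0.0079, adjusted p = 1, limma).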

How the results depend on the processing

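Against 230 risen and 231 fallen genes, of which 298 also passed in *idd4*, DESeq2 gave 496, 616 and 733, no filter 39, 29 and 23 (with 38 interaction calls against 0), no variance trend 116, 96 and 118, and no further scaling 386 and 117. With 1 library left out, risen genes ranged from 21 to 288, fallen genes from 14 to 346 and those shared with *idd4* from 32 to 342. The causes were not tested, except that a left-out library leaves fewer samples. A fit with a replicate block gave 548, 694 and 841, while the correlation of deviations between same-numbered samples was 0.07 for WT mock with WT NaCl and 0.12 to 0.48 for the other 5 pairs of groups (0.48 for WT NaCl with *idd4* NaCl). The labels do not say what a number marks and a group has 2 samples, so the numbers were not taken as pairs, and calls absent without the block are not shown to be absent. List medians changed sign in 3 cases: auxin response to 0.05 (from −0.19) with no further scaling, and, with 1 library left out, glucosinolate genes (0.27; −0.05 to 0.46) and nitrogen genes (−0.28; −0.41 to 0.03). Of 81 named genes that passed, 11 passed without each single library, and none changed direction under the alternatives run. TMM or quantile scaling, pseudocounts of 0.5 and 5, minimum means of 1 and 50, edgeR and fits on WT libraries alone kept both counts within 1.5 times. The genes behind similar counts could differ. Fits on WT libraries alone kept 348 (75.5%) of the 461 calls, or 362 (78.5%) with factors from WT libraries only. With 2 libraries per group and a median SE of 0.27, the smallest differences called were 0.82 and −0.80.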
